A study of Mus musculus with 8 samples.

Results

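Chaperone and protein folding genes were taken as the 88 genes, of 23278 entries in each deposited table, whose symbols name an HSP70, HSP110, HSP90, HSP60, HSP10 or small heat shock protein (Hspa to Hsph and Hsp90), a J protein (Dnaja, Dnajb, Dnajc), a subunit of the TRiC chaperonin (Cct2 to Cct8 and Tcp1) or a protein disulfide isomerase (Pdia1 to Pdia6). The rule reads symbols and no measured value, but it was set with earlier results of these data known. Of the 88, 70 were tested by the authors in at least 1 of their 4 tables and 64 in all 4. The other 18 were tested in none and reached at most 1.52 FPKM (fragments per kilobase of transcript and per sequencing depth). Hspg2, one of those 18, matches by name only, since it encodes the matrix proteoglycan perlecan and no chaperone.

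RNA came from sorted, GFP+ CD4+CD8+ double-positive thymocytes of C57BL/6 mice. DP1 cells had low surface CD5 and low TCRβ. DP2 cells had high CD5 and intermediate TCRβ, levels reached once the T cell receptor has begun to signal. WT control animals were Hdac3+/+, and Hdac3KO animals were Hdac3F/F LCK-Cre+, so that floxed alleles of Hdac3, which encodes a histone deacetylase that works in corepressor complexes, were cut in cells that use the T lineage promoter LCK. Whether the WT control animals also carried the Cre, what the GFP reported, and how many animals entered the RNA pools behind the libraries are not given in the sources used here. Each genotype was sorted into both stages, which gives 4 groups (WT DP1 and DP2, Hdac3KO DP1 and DP2) of 2 libraries, but the authors' deposited tables hold 1 FPKM value per gene and group. Depth and the spread between libraries are therefore unknown here, and the q-values, which rest on 2 libraries a group, measure only the spread between these libraries. A gene was called at a deposited Cuffdiff q of 0.05 or less, and ± gives the standard error (SE) of a log2 change, derived from its p, which is an upper bound where p is at its smallest, 5e-05.

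Hdac3 was at 38.1 and 11.7 FPKM in WT DP1 and Hdac3KO DP1 and at 29.7 and 15.4 in WT DP2 and Hdac3KO DP2 in the authors' deposited tables, so 30.7% and 51.9% of the WT values were left. Xist was at 0.0945 FPKM in WT DP1 and at 208 in Hdac3KO DP1, and at 0.243 and 139 in DP2, while the Y-linked Kdm5d went from 20.01 to 0.264 and from 34.6 to 0.322 in the authors' deposited tables. Genotype and sex of the animals cannot be told apart in any of the genotype comparisons below. All 10 markers of double-positive thymocytes were at 10.99 FPKM or more in each group, with sums from 3584 to 7589. Summed markers of B cells (4 genes), myeloid cells (5), thymic epithelium (5), erythroid cells (2) and NK and γδ T cells (3) were at most 3.10, 19.1, 12.6, 2.69 and 1.61 FPKM in any group. The myeloid sum was 3.51 and 10.2 FPKM in WT and Hdac3KO DP1 and 5.26 and 19.1 in WT and Hdac3KO DP2. A single marker made up 9.58 and 15.7 FPKM of the 2 Hdac3KO sums. Itgam was the 1 myeloid marker that was tested, and it was called higher in Hdac3KO at both stages. The sum is therefore no measure of myeloid cells, and its part in the results was not tested. Each table was scaled by itself, and the value of WT DP1 was 1.14 times higher in the median in the stage table than in the genotype table, so values of 4 groups set side by side below come from the 2 genotype tables unless a stage comparison is named.

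Chaperones bind protein chains that are not yet folded or have lost their fold, and release them for another attempt at folding. HSP70 proteins do this in a cycle of ATP binding and hydrolysis, in which J proteins bring the client and start hydrolysis, and HSP110 proteins exchange the nucleotide so that the client is let go. HSP90 takes over clients such as kinases and steroid receptors, TRiC folds actin, tubulin and other proteins inside a closed chamber, HSP60 and HSP10 form the chamber of mitochondria, and the protein disulfide isomerases make and correct disulfide bonds in the endoplasmic reticulum (ER). The heat shock factor HSF1 induces many cytosolic members through a promoter element of repeated inverted nGAAn units, and the unfolded protein response of the ER acts through the element CCAAT-N9-CCACG.

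The sequences below show which members carry these elements near their start, so that the values of these members can be read beside those of members without them. RefSeq promoter windows, from 250 bases before to 50 bases after a gene's start on build GRCm38.p6, were found for 73 of the 88 members and for 27025 genes in all. Both strands were searched. The short element GAANNTTC or TTCNNGAA occurred in 20 of the 73 members (27.4%) and in 17.0% of all genes. The longer element with 1 more unit, GAANNTTCNNGAA or TTCNNGAANNTTC, which always holds the short one, occurred in 4 members, Hsph1, Hspd1, Hspe1 and Dnajb6 (5.48%), and in 0.662% of all genes. The ER element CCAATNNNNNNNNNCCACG occurred in 4 others, Hspa5, Hsp90b1, Dnajc3 and Pdia6 (5.48%), and in 0.137% of all genes. The stretches below run 5′ to 3′ on the gene's own strand, with the element in capitals. Hspd1 and Hspe1 are transcribed away from each other from starts at 55088024 and 55088132 of chromosome 1, with 107 bases between them, and share the stretch printed for Hspe1, where 2 matches overlap. Hsp90b1 held a second match that is not shown.
Hsph1 chr5:149636280-149636308, minus strand: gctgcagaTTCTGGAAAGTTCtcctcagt
Hspe1 chr1:55088051-55088079, plus strand: acggtccgTTCTAGAACCTTCCGGAAggc
Dnajb6 chr5:29735844-29735872, plus strand: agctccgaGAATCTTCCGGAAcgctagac
Hspa5 chr2:34772020-34772048, plus strand: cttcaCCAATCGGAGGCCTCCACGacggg
Hsp90b1 chr10:86705598-86705694, minus strand: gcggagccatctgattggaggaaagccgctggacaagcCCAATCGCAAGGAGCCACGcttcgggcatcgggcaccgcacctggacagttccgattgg
Dnajc3 chr14:118937787-118937885, plus strand: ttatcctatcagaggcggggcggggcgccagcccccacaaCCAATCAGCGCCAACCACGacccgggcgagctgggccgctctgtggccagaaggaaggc
Pdia6 chr12:17266451-17266544, plus strand: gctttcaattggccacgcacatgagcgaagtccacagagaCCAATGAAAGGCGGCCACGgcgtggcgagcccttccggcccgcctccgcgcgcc

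Members differed in level by several orders of magnitude. Hspa8, the constitutive cytosolic HSP70, was the most abundant, with 1682 FPKM in WT DP1, 952 in Hdac3KO DP1, 869 in WT DP2 and 1134 in Hdac3KO DP2 in the authors' deposited tables, and ranked 45th among all entries by its mean. The cytosolic HSP90 genes Hsp90ab1 and Hsp90aa1 followed, with means of 492 and 410 FPKM over the 4 groups of the authors' deposited tables. Dnajc15, a J protein of the mitochondrial inner membrane, was next with a mean of 313 FPKM there, and Cct5 led the chaperonin subunits with 197. At the other end, Hspa1a and Hspa1b, the HSP70 genes that heat and other stress induce, were at 0.172 FPKM or less in each group of the authors' deposited tables. The small heat shock genes Hspb1, Hspb3 and Hspb8 likewise stayed under 0.5 FPKM in each group.

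Members fell mostly in 2 of the 4 comparisons, in Hdac3KO DP1 against WT DP1 and in WT DP2 against WT DP1, and both of these share the WT DP1 libraries. In the authors' deposited table of the DP1 genotypes 1 of 66 tested members was higher in Hdac3KO and 19 were lower, where 10.7% of all genes tested were higher and 12.9% lower. The median log2 change was -0.41 over members and -0.10 over all genes tested. DP2 cells gave 2 higher and 5 lower of 67 in the authors' deposited table (all genes 6.44% and 4.32%), with a median of 0.00 beside 0.10 for all genes. From DP1 to DP2 in WT 1 of 69 was higher and 18 were lower in the authors' deposited table (all genes 5.56% and 16.8%), with a median of -0.50 beside -0.27. The same step in Hdac3KO gave 0 higher and 2 lower of 65 in the authors' deposited table (all genes 1.78% and 4.65%), with 1 higher and 5 lower at an unadjusted Cuffdiff p under 0.05 and a median of -0.07 beside 0.01. With the median expressed gene of each comparison set to 0, 14 members were lower and 3 higher in Hdac3KO DP1 (all genes 9.02% and 13.6%), and 4 were lower and 3 higher at the WT step (6.55% and 10.9%). In all, 30 members were called in at least 1 table and 58 in none, 40 of which had been tested. The share of all genes called in at least 1 table is not given here, so these counts do not set members apart from other genes. In these bulk libraries fewer cells of a type and less RNA per cell cannot be told apart.

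**Figure D1:**
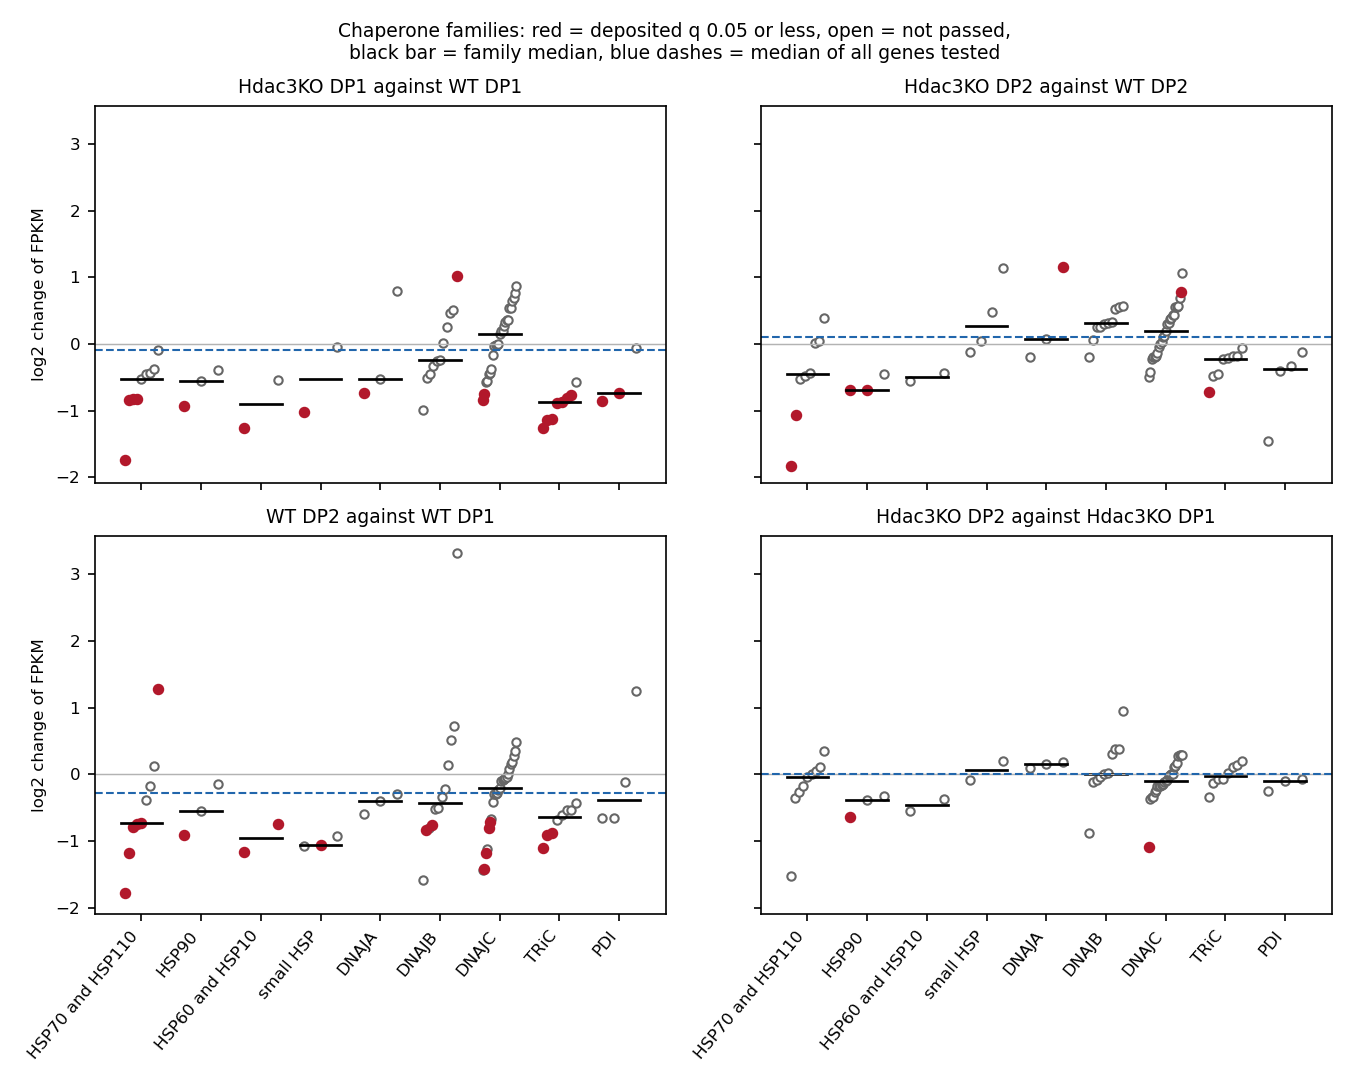
Log2 change of FPKM (vertical axis) of each tested member by family (horizontal axis) in the 4 comparisons. Red points passed a deposited q of 0.05, open points did not, black bars are family medians and blue dashes the median of all genes tested. TRiC subunits lie below the dashes in DP1 (family median -0.88), while DNAJC genes lie around them (0.15).

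The HSP110 genes, whose products work with HSP70, held the largest falls among the members called in the genotype comparisons. Hsph1, which encodes the heat-inducible HSP110 protein HSP105 (mm10 chromosome 5, 149614287 to 149636376, minus strand), was at 73.6 FPKM in WT DP1, 22.1 in Hdac3KO DP1, 49.5 in WT DP2 and 23.7 in Hdac3KO DP2 in the authors' deposited tables. Both Hdac3KO values lay below both WT values, and the Hdac3KO values were close to each other. Hsph1 was 3.33-fold lower in Hdac3KO DP1 (-1.74 ± 0.43, q = 0.000879) and 2.09-fold lower in Hdac3KO DP2 (-1.06 ± 0.27, q = 0.00245) in the authors' deposited tables. The difference between these effects, 0.68 ± 0.51, missed the threshold (normal test of a difference of effects, q = 0.484). In the authors' deposited stage tables Hsph1 fell from 83.1 to 48.2 FPKM from WT DP1 to WT DP2 (-0.79 ± 0.29, q = 0.036) and was at 22.1 and 21.5 in Hdac3KO (q = 0.972). The WT stage call of Hsph1 ended when the median gene was set to 0 (-0.46, q = 0.291).

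Hspa4l, an HSP110 gene best known from testis (chromosome 3, 40744495 to 40796103, plus strand), had a different order of values. It was at 27.4 FPKM in WT DP1, 15.3 in Hdac3KO DP1, 76.6 in WT DP2 and 21.5 in Hdac3KO DP2 in the authors' deposited tables. WT DP2 stood above the other 3 groups. Against WT it fell by 0.85 ± 0.27 on the log2 scale in DP1 (q = 0.0114) and by 1.83 ± 0.45 in DP2 (q = 0.00134), a 3.56-fold difference, in the authors' deposited tables. In the authors' deposited stage tables Hspa4l rose from 30.9 to 74.9 FPKM from WT DP1 to WT DP2 (1.27 ± 0.31, q = 0.000835), beside 15.3 and 19.5 for Hdac3KO (0.35 ± 0.24, q = 0.543). It was the 1 member called higher at the WT step. The genotype effect did not differ between the stages by the normal test (-0.99 ± 0.52, q = 0.292, and q = 0.15 from the stage tables). Hspa4, the third gene of the family, was at 56.4, 53.1, 58.0 and 58.7 FPKM in WT and Hdac3KO DP1 and then WT and Hdac3KO DP2, and its changes did not pass in either genotype table of the authors' deposited tables (q = 0.841 and 0.978).

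**Figure D2:**
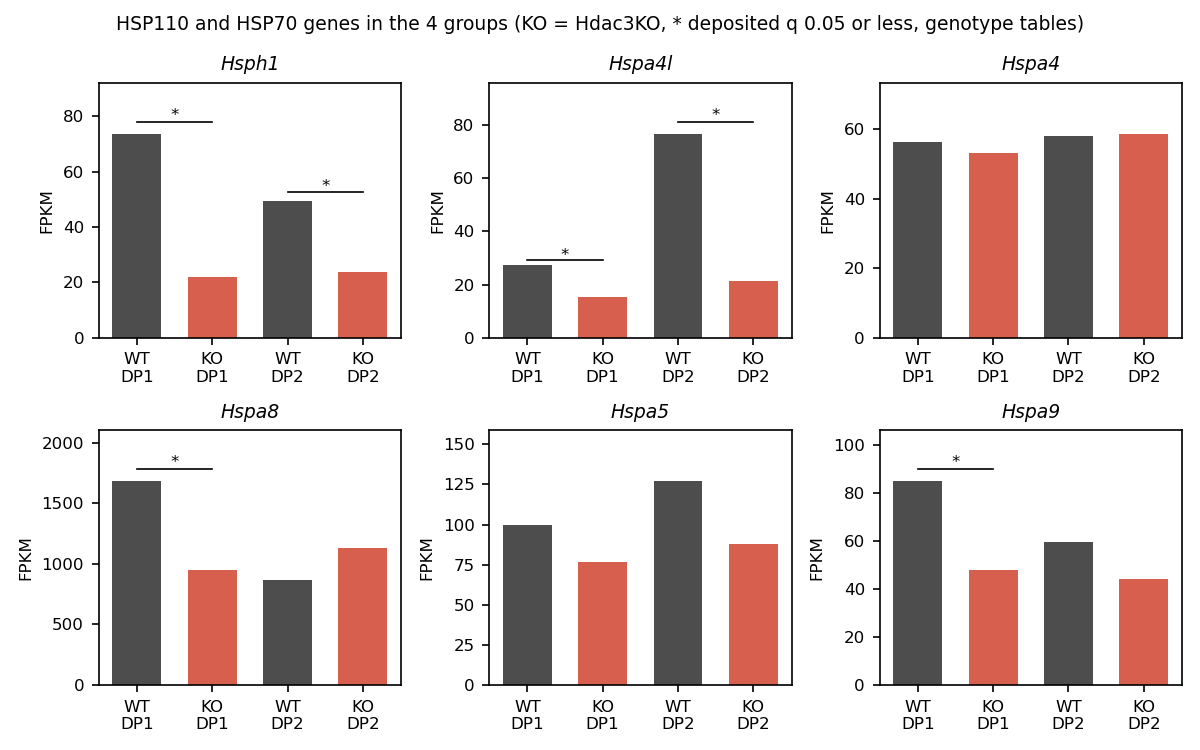
FPKM (vertical axis, from 0, a scale for each gene) of 3 HSP110 genes (Hsph1, Hspa4l, Hspa4) and 3 HSP70 genes (Hspa8, Hspa5, Hspa9) in the 4 groups, as deposited in the genotype tables. Bars are 1 value per group with no error available, and a star marks a deposited q of 0.05 or less. Hsph1 bars are lower in both Hdac3KO groups, Hspa4l peaks at 76.6 in WT DP2, and Hspa4 stays between 53.1 and 58.7.

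Of the HSP70 genes proper, Hspa8 and Hspa9 were called lower in Hdac3KO DP1, and neither passed the test for a different effect in DP2. Hspa8 (chromosome 9, 40800984 to 40810087, plus strand) fell from 1682 to 952 FPKM in Hdac3KO DP1 (-0.82 ± 0.29, q = 0.0266) and was at 869 and 1134 in WT and Hdac3KO DP2 (0.39 ± 0.29, q = 0.461) in the authors' deposited tables. The difference between these effects, 1.21 ± 0.41, did not pass (q = 0.0822). In the WT stage comparison of the authors' deposited tables Hspa8 fell from 1898 to 842 FPKM (-1.17 ± 0.41, q = 0.0244). Both calls of Hspa8 ended when the median gene was set to 0 (q = 0.0615 and 0.137). Hspa9, the HSP70 of mitochondria, fell from 84.9 to 48.1 FPKM in Hdac3KO DP1 (-0.82 ± 0.25, q = 0.01) and was at 59.6 and 44.2 in DP2 (-0.43 ± 0.24, q = 0.262) in the authors' deposited tables. The effects on Hspa9 differed by 0.39 ± 0.35 (q = 0.574), and its DP1 call ended with the trend on length removed. At the WT step Hspa9 fell from 95.6 to 57.9 FPKM (-0.72 ± 0.28, q = 0.0479) in the authors' deposited table. Hspa5, the ER HSP70 also called BiP, was at 99.7, 76.9, 127 and 88 FPKM in WT and Hdac3KO DP1 and then WT and Hdac3KO DP2 and passed in neither genotype table of the authors' deposited tables (q = 0.274 and 0.13). Of the 9 tested HSP70 and HSP110 genes 4 were lower in Hdac3KO DP1 (median -0.52, all genes 12.9% lower), 2 of 8 in Hdac3KO DP2 (-0.46, all genes 4.32%) and 5 of 9 in WT DP2 against WT DP1 (-0.72, all genes 16.8%). The other 2 lower at the WT step were Hspa14, a ribosome-bound member, and Hspa2, a germ cell member listed at 3.16 and 0.921 FPKM by the authors' deposited table. With the median gene set to 0, 4 members of any family stayed lower at the WT step (all genes 6.55%). Cct7, Dnajc9 and Dnajc15, which are of other families, were among these 4.

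The J proteins are the most numerous partners of HSP70. Of 39 tested in DP1 1 was higher and 3 were lower in Hdac3KO (all genes 10.7% and 12.9%), with a median of -0.01. In DP2 2 of 38 were higher and 0 lower (all genes 6.44% and 4.32%, and 0 members lower at an unadjusted Cuffdiff p under 0.05), with a median of 0.27. Of 40 tested from WT DP1 to WT DP2 6 were lower and 0 higher (all genes 16.8% and 5.56%, and 0 members higher at an unadjusted Cuffdiff p under 0.05), with a median of -0.28. Those 6 were Dnajb1, Dnajb12, Dnajc6, Dnajc8, Dnajc9 and Dnajc15. Dnajb1 fell from 58.9 to 33.2 FPKM at that step (-0.83 ± 0.29, q = 0.0231), and Dnajc8, a J protein linked to splicing, from 122 to 69.7 (-0.80 ± 0.28, q = 0.0238), in the authors' deposited table. Of these, Dnajc9 and Dnajc15 were still called with the median gene set to 0. Dnaja1, a cytosolic J protein (chromosome 4, 40722150 to 40737149, plus strand), was at 26.5 FPKM in WT DP1, 46.0 in Hdac3KO DP1, 25.3 in WT DP2 and 56.3 in Hdac3KO DP2 in the authors' deposited tables. Both Hdac3KO values were above both WT values, and the rise passed in DP2 (1.15 ± 0.32, q = 0.00666) and not in DP1 (0.79 ± 0.41, q = 0.145) in the authors' deposited tables. The related Dnaja2 went the other way in DP1, from 91.6 to 55.1 FPKM (-0.73 ± 0.25, q = 0.023), in the authors' deposited table. That call of Dnaja2 ended when the median gene was set to 0 (-0.62, q = 0.0605). Dnajb13, a gene best known from the radial spokes of cilia and sperm tails, rose from 11.6 to 23.6 FPKM in Hdac3KO DP1 (1.02 ± 0.31, q = 0.00942) in the authors' deposited table. In DP2 it was at 22.9 and 33.9 FPKM (q = 0.255) there. Exons of Dnajb13 overlap those of Ucp2 on the other strand, and those of Dnaja1 overlap Smu1. The library kit keeps strand, but whether the counting used it is not given in the sources used here, so reads of such pairs cannot be told apart. Ucp2 itself was at 118 and 97.3 FPKM in WT and Hdac3KO DP1 in the authors' deposited table (q = 0.447).

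Dnajc15 (chromosome 14, 77820681 to 77875125, minus strand) was the 1 member that passed the test for a different genotype effect at the 2 stages. It was at 443 FPKM in WT DP1, 248 in Hdac3KO DP1, 227 in WT DP2 and 334 in Hdac3KO DP2 in the authors' deposited tables, with WT DP1 the highest group and WT DP2 the lowest. It fell in Hdac3KO DP1 by 0.84 ± 0.26 on the log2 scale (q = 0.00882), and in DP2 the change was 0.56 ± 0.25 (q = 0.141), in the authors' deposited tables. The normal test of the difference gave 1.40 ± 0.36 (q = 0.0204, adjusted over 10144 genes), and 2.08% of all genes passed it. Of 64 members tested 7 had an unadjusted p under 0.05, where the share over all genes was 18.6%. With each SE multiplied by 1.5 the call of Dnajc15 was lost (q = 0.985), and computed from the stage tables both Dnajc15 (q = 0.0144) and Dnajb1 (q = 0.0499) passed, with 3.13% of all genes. The median expressed gene changed by -0.11 in DP1 and by 0.12 in DP2, and part of each difference is this offset. With these medians set to 0 the effects on Dnajc15 were -0.73 and 0.44, and the test of the difference was not repeated. Dnajb1, the J protein that serves cytosolic HSP70 under stress, was at 51.7, 37.9, 34.8 and 51.3 FPKM in WT and Hdac3KO DP1 and then WT and Hdac3KO DP2 in the authors' deposited tables. Dnajc6, which encodes the auxilin that strips clathrin from vesicles, rose from 14.9 to 25.5 FPKM in Hdac3KO DP2 (0.77 ± 0.24, q = 0.0154) and was at 20.7 and 23.6 in DP1 (q = 0.624) in the authors' deposited tables. Dnajc6 missed the threshold in DP2 when the median gene was set to 0 (0.66, q = 0.0517).

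**Figure D3:**
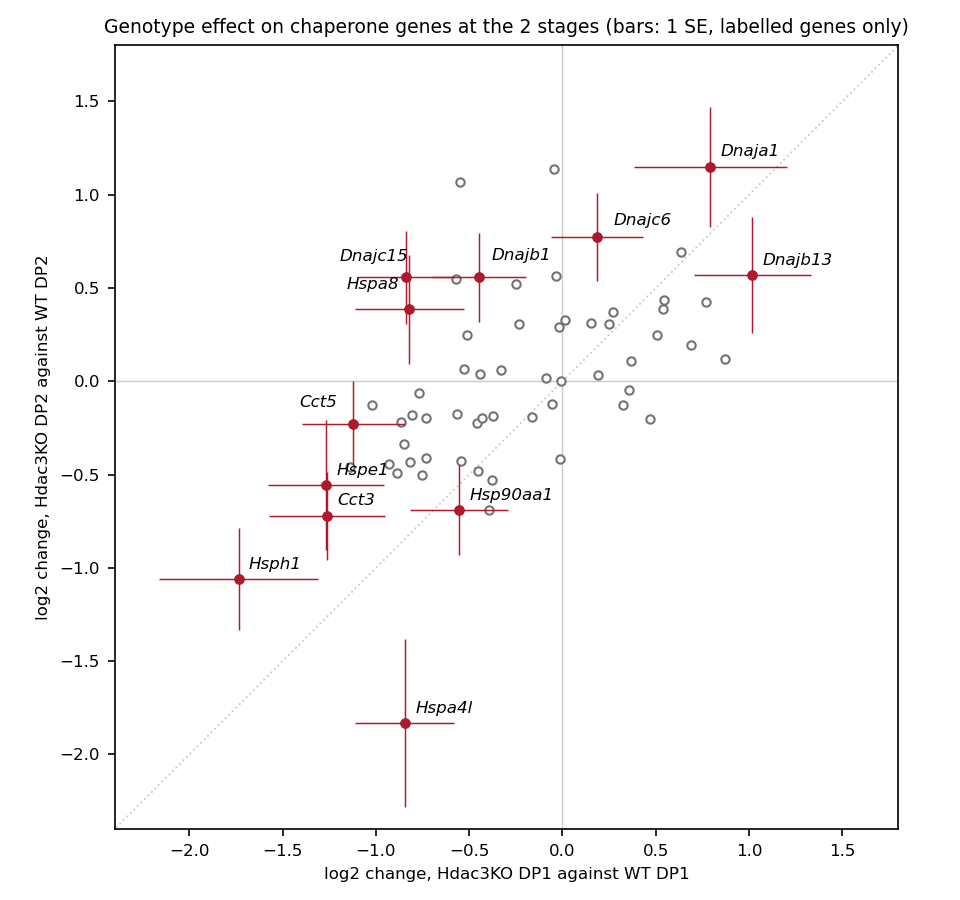
Log2 change of Hdac3KO against WT in DP1 (horizontal axis) and DP2 (vertical axis) for the members tested in both tables, with bars of 1 SE and names for 12 genes. Hsph1, Hspa4l and Cct3, which were called lower at both stages, lie at the lower left, and Dnajc15, with -0.84 and 0.56, lies in the upper left.

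Dnajc9, a chaperone of histone H3 and H4, followed the stage in both genotypes. It was at 105 FPKM in WT DP1, 62.4 in Hdac3KO DP1, 45.7 in WT DP2 and 32.2 in Hdac3KO DP2 in the authors' deposited tables, with each DP2 value below each DP1 value. From DP1 to DP2 Dnajc9 fell by 1.42 ± 0.35 on the log2 scale in WT cells (q = 0.000835 in the authors' deposited table) and by 1.10 ± 0.27 between the stages of Hdac3KO (q = 0.00151 there). Between the genotypes it fell by 0.75 ± 0.25 in DP1 (q = 0.0191) and was not called in DP2 (-0.50 ± 0.28, q = 0.273) in the authors' deposited tables. The WT stage call of Dnajc9 ended with the trend on transcript length removed (-0.79, q = 0.118), and its DP1 call with the median gene set to 0 (q = 0.0511). Genes of DNA replication were counted from a list of 16 that was added after the values were seen, so these counts test nothing. Of the 16, 15 were lower in WT DP2 than in WT DP1 (all genes 16.8%, list median -2.05). Between the Hdac3KO stages 14 were lower in DP2 (all genes 4.65%, list median -1.62). Against WT 12 were lower in Hdac3KO DP1 and 5 in Hdac3KO DP2 (all genes 12.9% and 4.32%). Pcna, the replication clamp, was at 927, 442, 302 and 183 FPKM in WT and Hdac3KO DP1 and then WT and Hdac3KO DP2 in the authors' deposited tables. The part of proliferation in the falls of Dnajc9 and of the chaperones below was not tested.

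Each of the 3 HSP90 genes was called lower in 1 genotype table. The calls were Hsp90ab1 in DP1 (all genes 12.9% lower) and Hsp90aa1 and Hsp90b1 in DP2 (all genes 4.32% lower). Hsp90ab1, the constitutive form (chromosome 17, 45567775 to 45573271, minus strand), was at 753 FPKM in WT DP1, 395 in Hdac3KO DP1, 473 in WT DP2 and 348 in Hdac3KO DP2 in the authors' deposited tables. Hsp90ab1 fell in Hdac3KO DP1 (-0.93 ± 0.27, q = 0.00665), and DP2 did not pass (-0.44 ± 0.26, q = 0.306), in the authors' deposited tables. With the trend on length removed the DP1 call of Hsp90ab1 ended (-0.66, q = 0.083). At the WT step Hsp90ab1 fell from 854 to 456 FPKM (-0.91 ± 0.36, q = 0.0495) in the authors' deposited table. That call ended with the median gene set to 0 (-0.58, q = 0.273). Hsp90aa1, the inducible form, was at 556, 379, 436 and 270.4 FPKM in WT and Hdac3KO DP1 and then WT and Hdac3KO DP2 in the authors' deposited tables. It passed in DP2 (-0.69 ± 0.24, q = 0.0435) and not in DP1 (-0.55 ± 0.26, q = 0.111), and fell from Hdac3KO DP1 to Hdac3KO DP2 (-0.64 ± 0.21, q = 0.0363), in the authors' deposited tables. The DP1 and DP2 effects on Hsp90aa1 differed by -0.14 ± 0.36 (q = 0.878). Hsp90b1, the ER form also called GRP94, was at 222, 169, 232 and 144 FPKM in the same order and fell in Hdac3KO DP2 (-0.69 ± 0.24, q = 0.0415) in the authors' deposited table. Hsp90ab1 (0.49 ± 0.38, q = 0.506) and Hsp90b1 (-0.30 ± 0.35, q = 0.692) also did not pass the normal test of a difference between the stages. The order of levels, Hsp90ab1 above Hsp90aa1 above Hsp90b1, held in each of the 4 groups of the genotype tables.

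TRiC, the chaperonin of the cytosol, fell together in DP1. Of its 8 tested subunit genes 7 were lower in Hdac3KO DP1 (median -0.88), where 12.9% of all genes tested were lower. Cct4, the remaining subunit, was at 81.2 and 54.9 FPKM without passing (-0.57 ± 0.25, q = 0.0856) in the authors' deposited table. Cct3 was at 125 and 52.3 FPKM in WT and Hdac3KO DP1 (-1.26 ± 0.31, q = 0.000879), the largest change of the complex, in the authors' deposited table. Cct6a fell from 271 to 123 FPKM and Cct5 from 298 to 137 (-1.14 ± 0.28 and -1.12 ± 0.28, q = 0.000879 for each) in the authors' deposited table. Cct2, Cct7, Cct8 and Tcp1 fell by 0.81, 0.87, 0.89 and 0.77 on the log2 scale. In DP2 Cct3 alone passed, from 109 to 66.2 FPKM (-0.72 ± 0.24, q = 0.0266), in the authors' deposited table (all genes 4.32% lower), and the median over the subunits was -0.22. From WT DP1 to WT DP2 3 of 8 were lower (all genes 16.8%), Cct7 (-1.10 ± 0.28, q = 0.0015), Tcp1 (-0.91 ± 0.29, q = 0.0136) and Cct5 (-0.87 ± 0.29, q = 0.0167), in the authors' deposited table. With the median gene set to 0, Cct7 kept that call (q = 0.0398), Tcp1 (-0.59, q = 0.152) and Cct5 (-0.55, q = 0.183) lost it, and Tcp1 also missed the threshold in DP1 (-0.66, q = 0.0513). In Hdac3KO 0 of 8 subunits passed between the stages in either direction (all genes 1.78% higher and 4.65% lower), nor at an unadjusted Cuffdiff p under 0.05. The genotype effects of the 8 differed between DP2 and DP1 by 0.39 (Cct4) to 0.89 (Cct5), without the median genes set to 0. Of the 8, 0 passed the test of the difference (all genes 2.08%, the smallest q was 0.152 for Cct5). In that test 2 had an unadjusted p under 0.05, where the share over all genes was 18.6%. With the trend on transcript length removed, 3 of the 7 DP1 calls (Cct3, Cct6a and Cct7) were kept (all genes 5.86% lower) and the median was -0.68, while Cct5 missed the threshold (-0.71, q = 0.0629). The testis-type subunit gene Cct6b was at 0.713 FPKM or less in each group of the authors' deposited genotype tables. Exons of Cct6a, Cct7, Cct8 and Tcp1 overlap genes on the other strand (Psph, Pradc1, Usp16, and Acat3 and Mrpl18), while Cct3 and Cct5 have no such overlap.

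**Figure D4:**
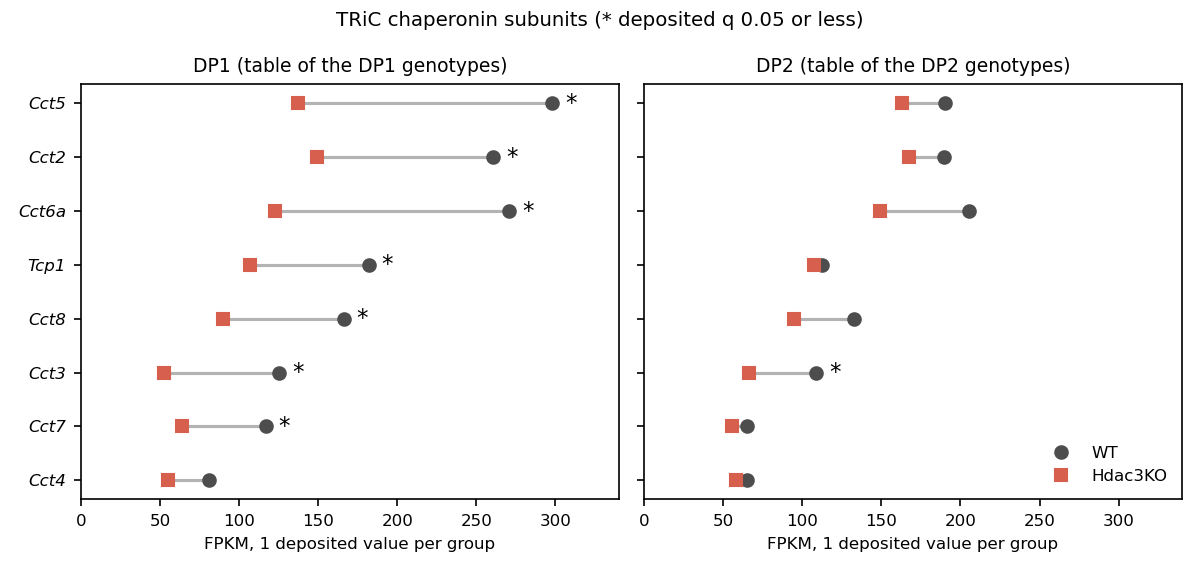
FPKM (horizontal axis, from 0) of the 8 TRiC subunits that were tested, ordered by mean level, in WT (dark circles) and Hdac3KO (red squares) at DP1 (left) and DP2 (right), 1 deposited value per group with no error available. Stars mark a deposited q of 0.05 or less. Each Hdac3KO square lies left of its WT circle, by the most for Cct5 in DP1 (298 and 137), and 1 subunit, Cct3, is starred in DP2.

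The mitochondrial pair HSP60 and HSP10, whose genes share the printed stretch with heat shock elements, gave unequal calls. Hspe1, which encodes HSP10, was at 82.2 FPKM in WT DP1, 34.2 in Hdac3KO DP1, 42.8 in WT DP2 and 29.1 in Hdac3KO DP2 in the authors' deposited tables. WT DP1 stood above the other 3 groups. It fell in Hdac3KO DP1 (-1.27 ± 0.31, q = 0.000879) and from WT DP1 to WT DP2 (-1.17 ± 0.32, q = 0.00361) in the authors' deposited tables. Hspd1, which encodes HSP60, was at 79.9, 54.8, 55.5 and 41.3 FPKM in WT and Hdac3KO DP1 and then WT and Hdac3KO DP2 and passed only at the WT step (-0.74 ± 0.28, q = 0.0439) in the authors' deposited tables, with q = 0.103 for the DP1 genotypes. That call of Hspd1 ended with the median gene set to 0 (-0.41, q = 0.339) and with the trend on length removed (-0.27, q = 0.602). Whether the changes of Hspe1 and Hspd1 differ was not tested. The Hspe1 transcript is short (964 bases beside a median of 2770 for members), and its DP1 call ended with the trend on length removed (-0.60, q = 0.19), as its WT stage call did with the median gene set to 0 (-0.84, q = 0.0521). Hspa8, Hsp90ab1, Hspd1 and Hspe1 have near-identical processed copies in the genome, and reads shared with those cannot be separated in these values. Dnajb6 and Hsph1, the other members with the longer heat shock element, were at 93.0 and 110.7 FPKM in WT and Hdac3KO DP1 (0.25 ± 0.26, q = 0.524) and at 73.6 and 22.1 in the authors' deposited table, so 2 of the 4 genes with that element were called in DP1, both lower. Of the 12 tested members with the short element 5 were lower and 0 higher in DP1 (all genes 12.9% and 10.7%), and 1 was lower and 1 higher in DP2 (4.32% and 6.44%). Members with and without the element were not compared by a test.

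Among the small heat shock genes Hspb11, a small protein of ciliary transport that carries the family's symbol, was the 1 expressed above 5 FPKM. It fell from 62.5 to 30.8 FPKM in Hdac3KO DP1 (-1.02 ± 0.32, q = 0.0119) and from 70.7 to 33.9 from WT DP1 to WT DP2 (-1.06 ± 0.40, q = 0.0382) in the authors' deposited tables. For DP2 the authors' deposited table has Hspb11 at 35.1 and 32.1 FPKM (q = 0.908). Both calls ended with the trend on length removed (-0.52, q = 0.292, and -0.40, q = 0.578).

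Of 13 ER members tested in DP1 2 were lower, a share close to that of all genes (12.9%), and both were protein disulfide isomerases: Pdia6 went from 48.9 to 27.1 FPKM (-0.85 ± 0.25, q = 0.00592) and Pdia4 from 62.4 to 37.6 (-0.73 ± 0.25, q = 0.0205) in the authors' deposited table. With the trend on length removed neither kept its call (Pdia6 -0.51, q = 0.156). Pdia3, the isomerase that works with calnexin and calreticulin on glycoproteins, was the most abundant of the family, with 121, 116, 130 and 119 FPKM in WT and Hdac3KO DP1 and then WT and Hdac3KO DP2 and no call in the authors' deposited tables (q from 0.8 to 0.905). Among the 4 members with the printed ER element Pdia6 was the 1 called in DP1 and Hsp90b1 the 1 called in DP2, while Hspa5 and Dnajc3, a J protein and inhibitor of eIF2α kinases, passed in neither genotype table. Dnajc3 was at 73.3, 65.5, 82.1 and 71.8 FPKM in WT and Hdac3KO DP1 and then WT and Hdac3KO DP2 in the authors' deposited tables. By location, 12 of 26 cytosolic and 3 of 8 mitochondrial members were lower in Hdac3KO DP1, with medians of -0.65 and -0.54, beside -0.24 for the ER. Whether these classes differ from each other was not tested.

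Genes that work with the members were counted from lists that are not part of the 88. Of 36 co-chaperones and heat shock factors tested in DP1 9 were lower and 1 was higher in Hdac3KO (all genes 12.9% and 10.7%), with a median of -0.43. Of 35 in DP2 2 were lower, St13 and Hsf4, and 0 higher (all genes 4.32% and 6.44%), with 3 higher at an unadjusted Cuffdiff p under 0.05. Hsf4, a heat shock factor, had the values 5.62, 1.64, 18.5 and 2.26 FPKM in WT and Hdac3KO DP1 and then WT and Hdac3KO DP2 in the authors' deposited tables. WT DP2 was the highest group here as for Hspa4l, and Hsf4 fell in DP1 (-1.78 ± 0.47, q = 0.00207) and DP2 (-3.03 ± 0.75, q = 0.00134) and rose from WT DP1 to WT DP2 (1.44 ± 0.41, q = 0.00455) in the authors' deposited tables. Hsf1, the main heat shock factor, did not pass in any table, with 13.7 and 10.3 FPKM in DP1 and 13.3 and 12.2 in DP2 in the authors' deposited tables. St13, which encodes the HSP70 partner HIP, was lower in Hdac3KO at both stages. The authors' deposited tables give it 131 and 62.5 FPKM in DP1 (-1.07 ± 0.26, q = 0.000879), with 154 and 73.8 for DP2 (-1.06 ± 0.26, q = 0.00134). Fkbp4, an HSP90-bound immunophilin, fell from 111 to 43.7 FPKM in Hdac3KO DP1 (-1.35 ± 0.33, q = 0.000879) in the authors' deposited table. Its relative Fkbp5 fell from DP1 to DP2 in WT (117 to 37.2 FPKM) and in Hdac3KO (57.4 to 25.4), as did Stip1, the adaptor between HSP70 and HSP90 (121 to 42.4 and 64.4 to 36.9), in the authors' deposited tables.

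Of the ER folding and unfolded protein response genes outside the 88, 3 of 31 were higher and 5 lower in DP1, near the shares of all genes (10.7% and 12.9%). In DP2 4 of 32 were higher and 1 lower (all genes 6.44% and 4.32%), and the medians were -0.25 and 0.09. P4hb, the founding protein disulfide isomerase, fell from 97.1 to 53.2 FPKM in DP1 (-0.87 ± 0.25, q = 0.00518) in the authors' deposited table. Eif2ak3, which encodes the ER stress sensor PERK, was higher in Hdac3KO at both stages. In the authors' deposited tables its DP1 values were 29.0 and 48.1 FPKM (q = 0.0198), and its DP2 values 29.6 and 73.3 (q = 0.00134). The response factors Atf4 and Xbp1 rose in Hdac3KO DP2 from 36.5 to 78.3 FPKM (1.10 ± 0.27, q = 0.00134) and from 34.0 to 61.3 (0.85 ± 0.25, q = 0.0095), while Atf6 fell from 5.18 to 2.01 (-1.36 ± 0.39, q = 0.00879), in the authors' deposited table. Gene-level values do not separate the spliced form of Xbp1. Of the immediate early and stress genes 5 of 15 were lower and 1 higher in Hdac3KO DP1 (all genes 12.9% and 10.7%), and 4 of 16 lower and 3 higher in Hdac3KO DP2 (4.32% and 6.44%). The authors' deposited tables list Jun at 27.5 and 6.02 FPKM in WT and Hdac3KO DP1 (q = 0.000879), and at 21.1 and 6.03 in DP2 (q = 0.00134).

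Part of these counts depended on how the groups were scaled and on transcript length. Over all genes expressed at 10 FPKM or more in a pair of groups, the median log2 change was -0.11 in the DP1 genotype comparison, 0.12 in the DP2 genotype comparison, -0.33 at the WT step and -0.01 at the Hdac3KO step. The counts with these medians set to 0 are given with the first counts above. Log2 changes also followed transcript length in DP1 and at the WT step, where the trend lay between -0.74 and 0.66 and between -0.99 and 0.34 at the members' lengths. With that trend removed 6 members stayed lower in Hdac3KO DP1, Cct3, Cct6a, Cct7, Dnajc15, Hspa4l and Hsph1 (5.86% of all genes), and 3 were higher, Dnajb13, Dnajc4 and Dnajc7 (8.87%). At the WT step 2 were then lower, Cct7 and Dnajc15 (4.8% of all genes), and 3 higher, Dnajb13, Hspa4l and Pdia2 (8.59%). Hsph1 (-1.74 to -1.84 in DP1) and Hspa4l (-0.85 to -1.32) changed by more in DP1 after this correction. In DP2, where the trend at the members' lengths lay between 0.08 and 0.14, the same 5 members were lower and 1, Dnaja1, was higher, both with the trend removed (all genes 5.93% and 4.56%) and with the median set to 0 (5.75% and 4.39%).

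**Figure D5:**
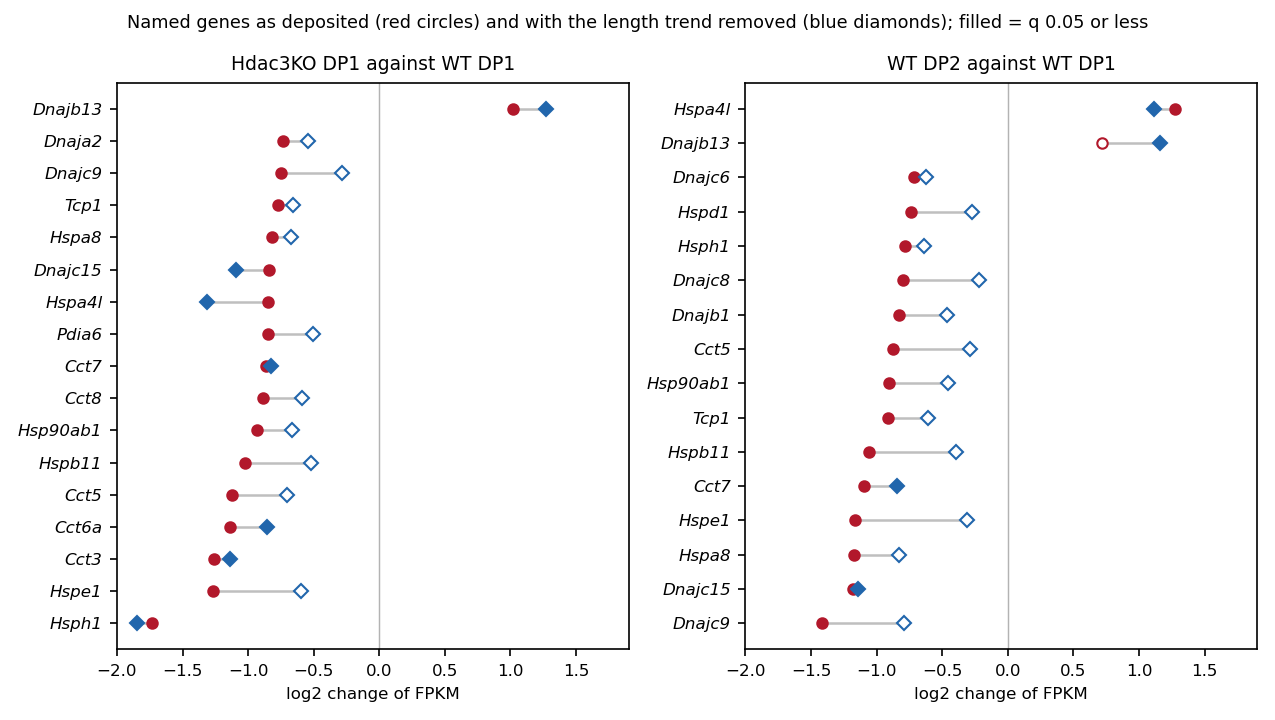
Log2 change of FPKM (horizontal axis) of the named members as deposited (red circles) and with the trend on transcript length removed (blue diamonds), for Hdac3KO DP1 against WT DP1 (left) and WT DP2 against WT DP1 (right). Filled symbols have a q of 0.05 or less. Hsph1 and Hspa4l stay filled in DP1, while the Hspe1 diamond moves from -1.27 to -0.60 and is open.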

How the data were processed

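RNA sequencing of sorted thymocytes gave 8 libraries in 4 groups of 2. Per the submitters' processing notes, reads were handled with Trimmomatic 0.32, TopHat2 2.0.11 and Cuffdiff 2.1.1 on mm10. The annotation, the settings and whether strand was used in counting are not given in the sources used here. The authors deposited 4 Cuffdiff tables, each with 1 FPKM value per gene and group, a test statistic (a score), a p-value and a q-value. No value per library was used here, so depth, replicate spread and confidence intervals could not be given. The deposited q-values equalled a Benjamini-Hochberg adjustment of the deposited p-values to within 5.26e-07.

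The members and gene lists were chosen with earlier results of these data known, and the list of 16 replication genes after their values were seen. Log2 changes were computed from the deposited FPKM values, and an SE as the size of the log2 change over the normal quantile of the deposited p-value. The genotype effect in DP2 minus that in DP1 was tested two-sided against a normal distribution, with summed squared SEs and adjustment over all genes. This test used the changes as deposited and was not repeated with the median genes set to 0. Genes were named by rule: called members whose higher group reached 5 FPKM, up to 12 per direction and comparison by size, the most abundant member of each family, and up to 5 called genes per other list and comparison. Members named outside it (among them Hspa4, Hspa9, Hspa5, Cct2, Cct4, Pdia4, Dnajc3 and Hspa2), and the genes Hsf1, Pcna and Ucp2, were chosen after their values were seen. Alternatives were other thresholds, a minimum of 5 FPKM, a pseudocount of 1, adjustment over all 4 tables, the median over genes at 10 FPKM or more set to 0, and a lowess trend on transcript length (fraction 0.3, longest transcript per gene) removed. The scripts ran in Python 3.11.15 with numpy 2.4.6, pandas 2.3.3, scipy 1.17.1, statsmodels 0.14.6 and matplotlib 3.10.9, and the statistics were tested on simulated data.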

Additional observations from a re-analysis of the deposited data

Results flagged for a closer look

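The genotype effect on Dnajc15 differed between the stages by 1.40 on the log2 scale (DP2 minus DP1, SE 0.36, q = 0.0204 by the normal test of the difference). FPKM values were 443 and 248 in WT and Hdac3KO DP1 and 227 and 334 in WT and Hdac3KO DP2 in the authors' deposited tables. Both tables rest on 2 libraries a group, and the groups differ in sex as well as genotype. The test was not repeated with the median gene of each comparison set to 0.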

How the results depend on the processing

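No paired analysis was possible because the deposited tables hold 1 value per group, and for the same reason no library could be left out. For Hdac3KO against WT in DP1, 1 member was higher, and 3 were at a q of 0.10, with the median gene set to 0 and with the length trend removed. The 19 lower members there (all genes 12.9%) became 10 at a q of 0.01, 6 with a log2 change of at least 1 and 6 with the length trend removed (all genes 5.86%). In DP2 the 2 higher became 1 at a q of 0.01, with a log2 change of at least 1, with the median set to 0 and with the length trend removed, and the 5 lower became 2 at a q of 0.01 and with a log2 change of at least 1. At the WT step the 1 higher became 2 at a q of 0.10 and 3 with the median set to 0 or the length trend removed. The 18 lower (all genes 16.8%) became 5 at a q of 0.01 and 7 with a log2 change of at least 1. With the median set to 0 they became 4 (all genes 6.55%), and with the length trend removed 2 (4.8%). Under these last 2 settings the median over members of -0.50 became -0.17 and -0.12. At the Hdac3KO step the 0 higher became 1 at a q of 0.10 and with adjustment over all 4 tables, and the 2 lower became 1 at a q of 0.01 and with a log2 change of at least 1. Lower counts at a q of 0.10 are not listed here, but that setting added lower members too. Among them by deposited q were Cct4 in Hdac3KO DP1 (0.0856), Pdia4 at the WT step (0.071) and Hspa2 at the Hdac3KO step (0.096). The 1 member with a different genotype effect at the stages became 2 from the stage tables, 3 at a q of 0.10 and 0 with each SE multiplied by 1.5 (q = 0.985 for Dnajc15). Stricter thresholds call fewer genes by construction, and for the median and length settings the cause was not tested. Shares over all genes at the other thresholds are not given here. These counts therefore do not show whether members depended on the thresholds more or less than other genes did. Over the 26 genes named by rule, 832 alternative values held 741 on the same side of the threshold, 87 that lost the call, 4 that gained it and 0 that reversed. Another 12 values, called neither way, changed sign. Results not called as deposited could not lose a call, and stricter thresholds could not call them. The minimum of 5 FPKM and the pseudocount each left all 104 results the same. The 741 are therefore no measure of how stable the calls were.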
